A study of Homo sapiens with 16 samples.

Results

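A set of 10 transporter genes, carriers that bring amino acids across the cell membrane, was followed across 4 conditions and both assays of a ribosome profiling study. The cells were MDA-MB-231, an established line of triple-negative breast cancer that the labels also describe as a xenograft line. The members were chosen by symbol: SLC7A5, SLC3A2, SLC7A11, SLC7A1, SLC1A4, SLC1A5, SLC38A1, SLC38A2, SLC43A3 and SLC6A9, which are 10 of the 26485 symbols counted. Earlier results of these data were known when they were chosen. All cells carried a CRISPRi guide (CRISPR interference, which represses transcription at the guided site) and an overexpression construct. Control cells had the guide against eGFP, a gene that human cells lack, and the control construct. Construct cells had the eGFP guide and the tRNAIleUAU construct, knockdown cells the guide against Ile GAU and the control construct, and double modulation cells the Ile GAU guide with the tRNAIleUAU construct. Each condition had 2 libraries of ribosome footprints, the stretches of mRNA shielded by translating ribosomes, and 2 of total RNA, all from untreated cultures in DMEM with serum. Whether the libraries of a condition came from separate cultures is not stated, so the p-values measure the spread between these libraries only. The number of clones and the guide sequences are not given in the sources used here either, and 0 of the counted symbols name an isoleucine tRNA, so the knockdown and the overexpression themselves were not checked.

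SLC7A5 (also called LAT1) is the carrying chain of the main exchanger of large neutral amino acids, among them leucine, isoleucine, phenylalanine and tryptophan. SLC3A2 (4F2hc or CD98) is a single-pass glycoprotein that is joined to SLC7A5 by a disulfide bond and brings it to the cell surface. The same heavy chain also partners SLC7A11, the carrying chain of the cystine and glutamate exchanger, so a cell's SLC3A2 serves several carriers. When an uncharged tRNA or a shortage of amino acids activates the kinase GCN2, the transcription factor ATF4 is made, and many carrier genes, SLC7A5, SLC3A2, SLC7A11 and SLC1A5 among them, are known ATF4 targets. ATF4 binds with C/EBP partners to a composite element.

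The element, written here as TGATGNAA with N any base and read on both strands, was looked for in RefSeq promoter windows of GRCh38.p14, which run from 250 bases before to 50 after a start site. Windows were found for 8 members, 14 in all, while SLC7A11 and SLC43A3 had none in the table. A match was held by 5 windows, each of a different member, beside 3.62% of the 35116 windows of all genes. The 30 bases around each match are shown because they hold the element in 5 of the 8 members with a window. The share of all genes with a match in any of their windows was not computed, so 5 of 8 has no background beside it. Capitals mark the match, which reads in the reverse sense on the printed strand in SLC1A4 and SLC3A2.
SLC3A2: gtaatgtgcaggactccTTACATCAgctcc
SLC1A5: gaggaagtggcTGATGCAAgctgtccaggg
SLC1A4: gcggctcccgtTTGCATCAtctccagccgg
SLC7A1: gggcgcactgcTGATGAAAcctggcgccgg
SLC38A1: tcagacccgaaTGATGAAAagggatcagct

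The printed bases of SLC3A2 are chr11:62881719-62881748 (plus strand), in the window of 1 of its 3 start sites. Those of SLC1A5 are chr19:46784893-46784922 (minus strand) and those of SLC1A4 chr2:64989381-64989410 (plus strand). Those of SLC7A1 are chr13:29595663-29595692 (minus strand) and those of SLC38A1 chr12:46266502-46266531 (minus strand). SLC1A5, SLC1A4 and SLC38A1 also have more than 1 start site, and in each the match is in the window of only 1 of them. SLC7A5, which has a single window on the minus strand of chromosome 16, held no match. Its 250 bases before the start site, chr16:87869508-87869757, are printed as those of the other chain of the carrier described next.
SLC7A5: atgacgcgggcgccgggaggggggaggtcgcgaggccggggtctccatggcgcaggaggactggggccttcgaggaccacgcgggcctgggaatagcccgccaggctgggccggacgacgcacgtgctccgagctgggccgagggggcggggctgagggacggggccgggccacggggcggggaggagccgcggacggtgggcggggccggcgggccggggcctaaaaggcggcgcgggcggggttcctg

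The whole SLC7A5 window was 80.3% G and C, beside a median of 58.7% over all windows. A match is a run of letters and no site of binding, and a window without one says only that these letters are not in it.

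Counts on genes ran from 358340 to 938909 per footprint library and from 2512247 to 5446599 per total RNA library. All footprint libraries with the Ile GAU guide, at 639320 to 938909 counts, were deeper than those with the eGFP guide, at 358340 to 607919. Of 8 marker genes of a mesenchymal-like breast line, 7 had a median of at least 1 CPM (counts scaled to a common library total) in total RNA, led by FN1, VIM, CD44 and AXL, while SPARC had 0.697. Of 8 luminal breast genes, ESR1, CDH1 and FOXA1 had a median of 0 and PGR of 0.405, while KRT8 (117.5), ERBB2 (37.0), EPCAM (19.3) and GATA3 (4.39) were above 1 CPM. The 2 double modulation total RNA libraries stood apart from one another, with a chi-square per degree of freedom of 15.1 over genes. The other pairs of libraries had 1.13 to 2.38. Some results that rest on the double modulation total RNA are given with and without each library, and others only with both.

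All 10 members passed the filter on low counts in both assays. Footprints of SLC7A5 and SLC3A2 fell in knockdown cells relative to control cells, and the other 8 members did not pass the test. Total RNA of the pair differed from control by less than its error. SLC7A5 was at 483.6 and 490.1 footprint CPM in the control libraries and at 384.0 and 337.1 in the knockdown libraries. Construct libraries had 413.0 and 438.9, and double modulation libraries 419.6 and 387.9. Both control libraries were therefore higher than every other footprint library, and the knockdown libraries were the lowest of the 8.

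SLC3A2 had 883.3 and 929.1 footprint CPM in control and 700.8 and 691.1 in knockdown libraries. It had 775.8 and 864.0 in construct and 788.1 and 713.3 in double modulation libraries. The order of the 4 conditions was the same for both chains, control first, then construct, double modulation and knockdown. Construct and double modulation libraries overlapped for both chains, so their order is within the spread, while the knockdown libraries overlapped no other condition. Expressed as means, SLC7A5 went from 486.9 ± 4.60 CPM (SD, n = 2) in control to 360.5 ± 33.1 in knockdown, a difference of -25.9%, and SLC3A2 from 906.2 ± 32.3 to 695.9 ± 6.84, a difference of -23.2%.

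**Figure D1:**
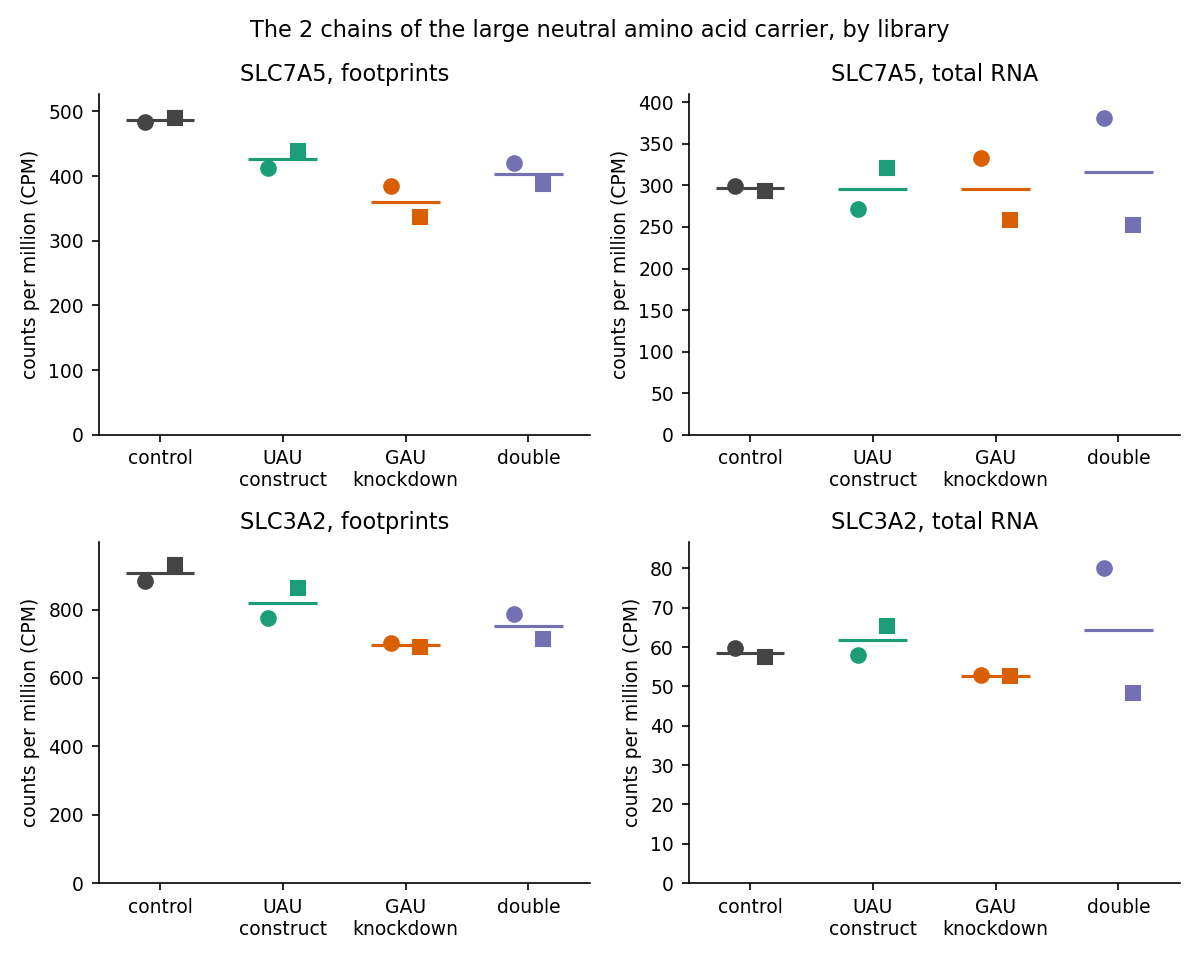
CPM (vertical axes, from 0) of SLC7A5 and SLC3A2 in footprints and in total RNA, by condition; each point is a library (circle replicate 1, square replicate 2) and each line the mean of 2. In footprints both control libraries lie above all others for both chains, and in total RNA the double modulation libraries are far apart, at 381.0 and 252.3 CPM for SLC7A5.

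In the edgeR quasi-likelihood test, SLC7A5 footprints differed by -0.44 ± 0.12 on the log2 scale between knockdown and control cells (SE, adjusted p = 0.0436). SLC3A2 footprints differed by -0.39 ± 0.11 (adjusted p = 0.0464). These 2 of 10 members fell where 0.651% of the 8143 genes tested fell. The members were chosen with earlier results of these data known, so that share is a description and no test of them. In the same comparison 371 genes of chromosome 7 had a median of -0.39, against 0.00 over all genes, and 326 were under 0. None of the 10 carriers lies on that chromosome, and whether its shift bears on the pair was not tested. Both calls lie close to the threshold of 0.05, and were lost with DESeq2 (adjusted p = 0.0876 and 0.0544), with no filter on low counts (0.0838 and 0.0778) and without chromosome 7 genes (0.0527 and 0.0576). They were also lost when footprint libraries were thinned to the depth of the shallowest (log2 fold changes -0.47 and -0.33, adjusted p = 0.159 and 0.312), and when any library of control, construct or knockdown was left out, with adjusted p up to 0.467 and 0.460, while the log2 fold changes kept their sign.

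With constructs pooled, the 4 Ile GAU guide libraries had 382.2 ± 34.0 SLC7A5 footprint CPM (SD, n = 4) against 456.4 ± 36.8 in the 4 eGFP guide libraries. SLC3A2 had 723.3 ± 44.2 against 863.1 ± 64.3. The guide effect was -0.27 ± 0.08 (adjusted p = 0.0371 by edgeR) for SLC3A2, which fell, and -0.27 ± 0.09 (adjusted p = 0.0893) for SLC7A5, which did not pass. Lower calls made up 1.99% of all genes in this comparison. The SLC3A2 call was lost with DESeq2 (adjusted p = 0.153), with no filter on low counts (0.0679) and with thinned libraries (0.235), and in 7 of 8 fits without 1 library (adjusted p up to 0.336). For both chains the pooled groups overlapped by a small margin, since the lowest eGFP guide library (413.0 for SLC7A5, 775.8 for SLC3A2) lay under the highest Ile GAU guide library (419.6 and 788.1).

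The double modulation gave -0.28 ± 0.12 for SLC7A5 (adjusted p = 0.301 by edgeR) and -0.29 ± 0.11 for SLC3A2 (adjusted p = 0.203), and neither passed. The construct alone gave -0.19 ± 0.13 (adjusted p = 0.987) and -0.14 ± 0.11 (adjusted p = 0.992). The construct, the knockdown and the double modulation were each compared with the same 2 control libraries, so a high value in those libraries lowers all of these differences at once. The interaction, which is the construct's effect under the Ile GAU guide minus its effect under the eGFP guide, was 0.35 ± 0.18 for SLC7A5 (unadjusted p = 0.0496, adjusted p = 0.855 by edgeR) and 0.25 ± 0.16 for SLC3A2 (adjusted p = 0.975). It was not shown to differ from 0.

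The 2 chains kept their proportion in footprints. The ratio of SLC3A2 to SLC7A5 counts lay between 1.83 and 2.05 in all 8 footprint libraries, and between 0.159 and 0.214 in total RNA. These are ratios of counts with no correction for transcript length, so they compare libraries and not the amounts of the chains. Of the footprints of the 10 members together, the pair took 29.98 to 34.5% with the eGFP guide and 27.3 to 29.74% with the Ile GAU guide. These ranges were apart by a narrow margin, while the CPM of each chain overlapped between guides. The share is built from the chains whose fall is given above, and it was not computed for other pairs of genes. It is therefore a description and no separate result. The other 8 members summed to 2693 to 2864 CPM and 2558 to 2892 CPM, which overlapped.

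SLC7A5 total RNA was 299.3 and 293.8 CPM in control, 271.3 and 321.2 in construct, 333.2 and 258.0 in knockdown and 381.0 and 252.3 in double modulation libraries. SLC3A2 total RNA was 59.7 and 57.5, 58.0 and 65.4, 52.9 and 52.7, and 80.2 and 48.4 CPM in the same order. For SLC7A5 every condition other than control spanned the control values, and for SLC3A2 the knockdown libraries lay under control and did not overlap it, as in 22.6% of the 11720 genes tested. The knockdown effect on total RNA was 0.00 ± 0.18 for SLC7A5 and -0.14 ± 0.20 for SLC3A2 (edgeR adjusted p = 1.00 and 0.990). In bulk libraries such values do not separate RNA per cell from the share of cells that make it.

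Translational efficiency, the footprint difference beyond the total RNA difference, was -0.45 ± 0.23 for SLC7A5 in the knockdown (unadjusted p = 0.0715, adjusted p = 1.00 by edgeR) and -0.25 ± 0.23 for SLC3A2 (unadjusted p = 0.286). The error of this measure holds the error of both assays, and for SLC7A5 it was 0.23 where that of footprints alone was 0.12. No member passed in any of the 6 comparisons of translational efficiency by edgeR or DESeq2, and 0 of 8012 genes (0%) did so by edgeR. An unadjusted p under 0.05 was reached by 1 member in the knockdown, SLC7A11, beside 3.34% of genes, and by 0 members in the other 5 comparisons, beside 2.78% of genes with the construct, 4.18% in the double modulation, 4.66% with constructs pooled, 3.06% with guides pooled and 2.51% for the interaction. At these shares 0 of 10 does not set the members apart.

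The amino acid carriers that join or resemble the pair came next. SLC7A11, which uses SLC3A2 as its own heavy chain, did not follow it in footprints: control libraries had 245.1 and 252.5 CPM, construct 290.2 and 269.1, knockdown 248.5 and 261.0 and double modulation 297.2 and 233.1. Its knockdown effect in footprints was 0.02 ± 0.14 (adjusted p = 0.974 by edgeR). In total RNA SLC7A11 had 818.0 and 799.1 CPM in control, 737.8 and 772.0 in construct, 575.6 and 642.4 in knockdown and 669.2 and 812.8 in double modulation libraries. The knockdown libraries were the lowest of all 8.

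That total RNA difference of SLC7A11 was -0.40 ± 0.12, with an unadjusted p of 0.0100 and an adjusted p of 0.472 by edgeR, and it did not pass. It passed once the spread was estimated without both double modulation total RNA libraries (adjusted p = 0.00313). That fit called 228 of 11226 genes, where the main fit called 3 of 11720. The log2 fold change was -0.40 without replicate 1, without replicate 2 and without both. The difference between footprints and total RNA of SLC7A11 in the knockdown, its translational efficiency, was 0.42 ± 0.19 (unadjusted p = 0.0437, adjusted p = 1.00 by edgeR). It did not pass with or without those libraries (adjusted p = 0.801 without both).

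SLC7A1 (CAT1), the carrier of arginine, lysine and ornithine, had 340.5 and 308.6 footprint CPM in control and 303.9 and 268.2 in knockdown libraries. Construct libraries had 304.2 and 325.7, and double modulation libraries 315.3 and 270.6. The knockdown libraries lay under both controls, but by a margin smaller than the gap between the controls, and the difference of -0.19 ± 0.13 did not pass (adjusted p = 0.694 by edgeR). Its total RNA had the narrowest range of the 10 relative to its level, from 289.8 to 331.6 CPM, with a knockdown effect of -0.05 ± 0.09.

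**Figure D2:**
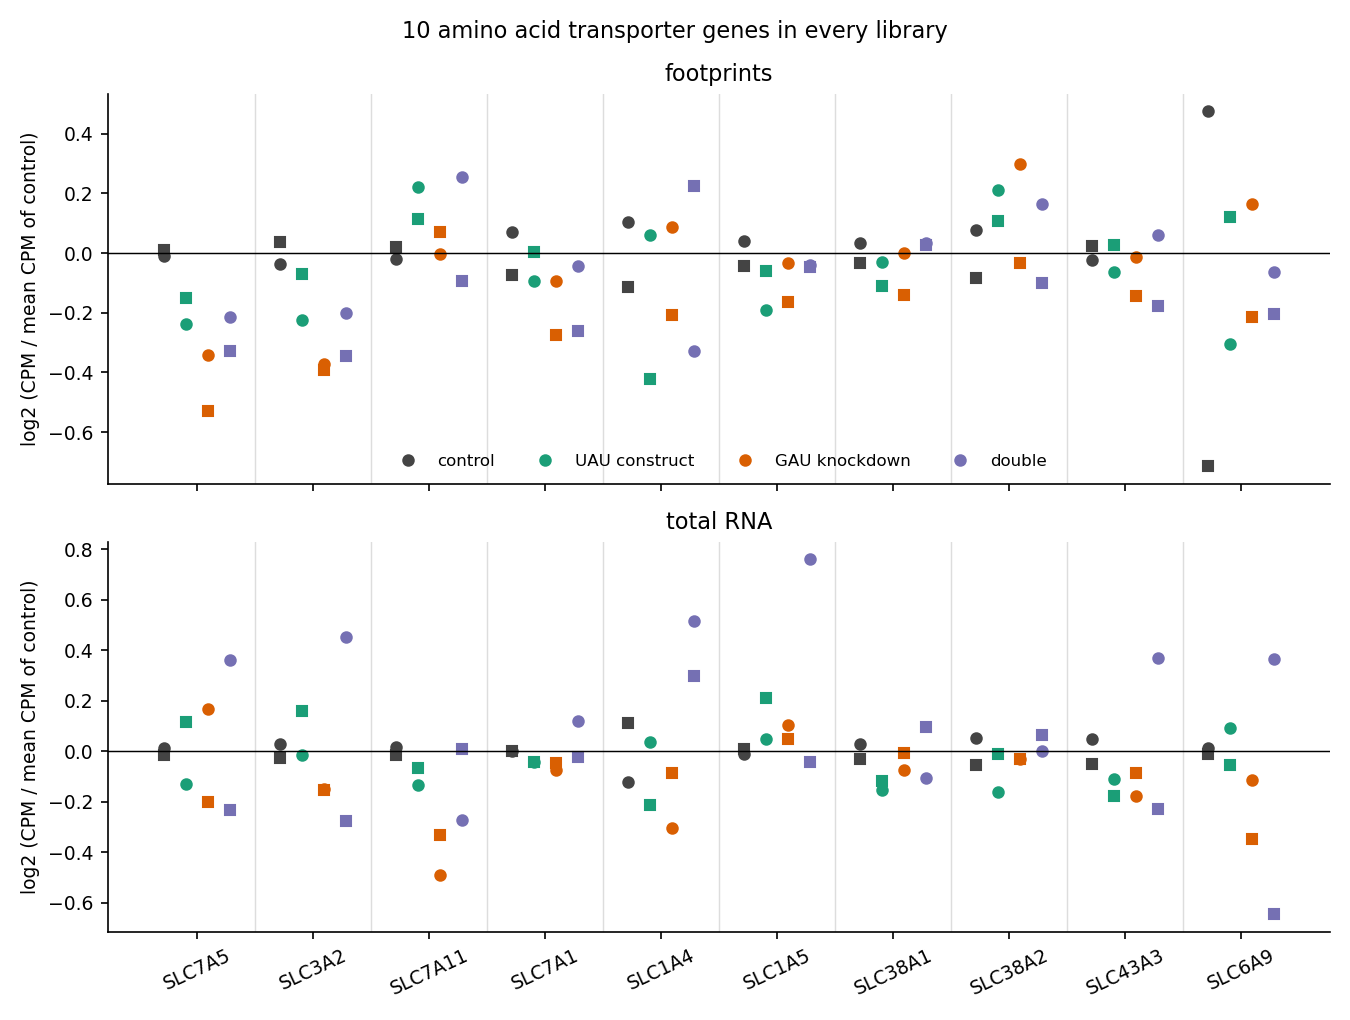
Each library's value of the 10 transporter genes as log2 of its CPM over the mean CPM of the control libraries of that assay (circles replicate 1, squares replicate 2; colours mark the 4 conditions). In footprints all 6 libraries outside control lie below 0 for SLC7A5 and SLC3A2, and in total RNA replicate 1 of the double modulation is the highest library of SLC7A5, SLC3A2, SLC7A1, SLC1A5, SLC1A4, SLC43A3 and SLC6A9.

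SLC1A5 (ASCT2), the sodium-dependent exchanger of glutamine and other neutral amino acids, had 713.9 and 673.3 footprint CPM in control, 608.4 and 665.1 in construct, 677.2 and 618.6 in knockdown and 675.3 and 671.0 in double modulation libraries. The differences from control were between -0.12 and -0.06 on the log2 scale, with errors of 0.11 to 0.12, and none passed. In total RNA 7 of its 8 libraries had 71.1 to 84.8 CPM and replicate 1 of the double modulation had 124.1. Its relative SLC1A4 (ASCT1), a carrier of alanine, serine and cysteine, was counted thinly, with 12 to 29 footprint counts and 26 to 91 total RNA counts per library. Both double modulation libraries of SLC1A4, at 16.7 and 14.4 total RNA CPM, were higher than the control libraries at 10.7 and 12.6, as in 16.7% of all genes. With both libraries the difference of 0.40 ± 0.24 did not pass (adjusted p = 0.781 by edgeR), and it is not given without each.

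SLC38A1 and SLC38A2 (SNAT1 and SNAT2) take up glutamine and other small neutral amino acids together with sodium. SLC38A1 footprints lay between 351.6 and 396.4 CPM over the 8 libraries and its total RNA between 803.1 and 956.1. SLC38A2 footprints lay between 560.0 and 737.3 CPM, and its total RNA between 564.2 and 660.0. SLC38A2 and SLC7A11 were the only members whose footprint log2 fold changes were above 0 in all 3 comparisons with control. For SLC38A2 the knockdown gave 0.13 ± 0.12, the construct 0.15 ± 0.12 and the double modulation 0.03 ± 0.12. None of these passed by edgeR, and the knockdown libraries, at 737.3 and 586.0, enclosed the higher control library at 633.3.

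SLC43A3 belongs by sequence to a family of large neutral amino acid carriers but is known as a carrier of purine nucleobases. Its footprints were 447.4 and 462.1 CPM in control and 451.1 and 412.0 in knockdown libraries, a difference of -0.09 ± 0.12 (adjusted p = 0.886 by edgeR). SLC6A9 (GlyT1), the glycine carrier, had 11 to 36 footprint counts per library, and its 2 control libraries, at 52.6 and 23.1 CPM, were the highest and the lowest of the 8. At this depth a change of SLC6A9 of the size seen for SLC7A5 could not be told from the spread, with an error of 0.30 on the log2 scale in the knockdown.

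**Figure D3:**
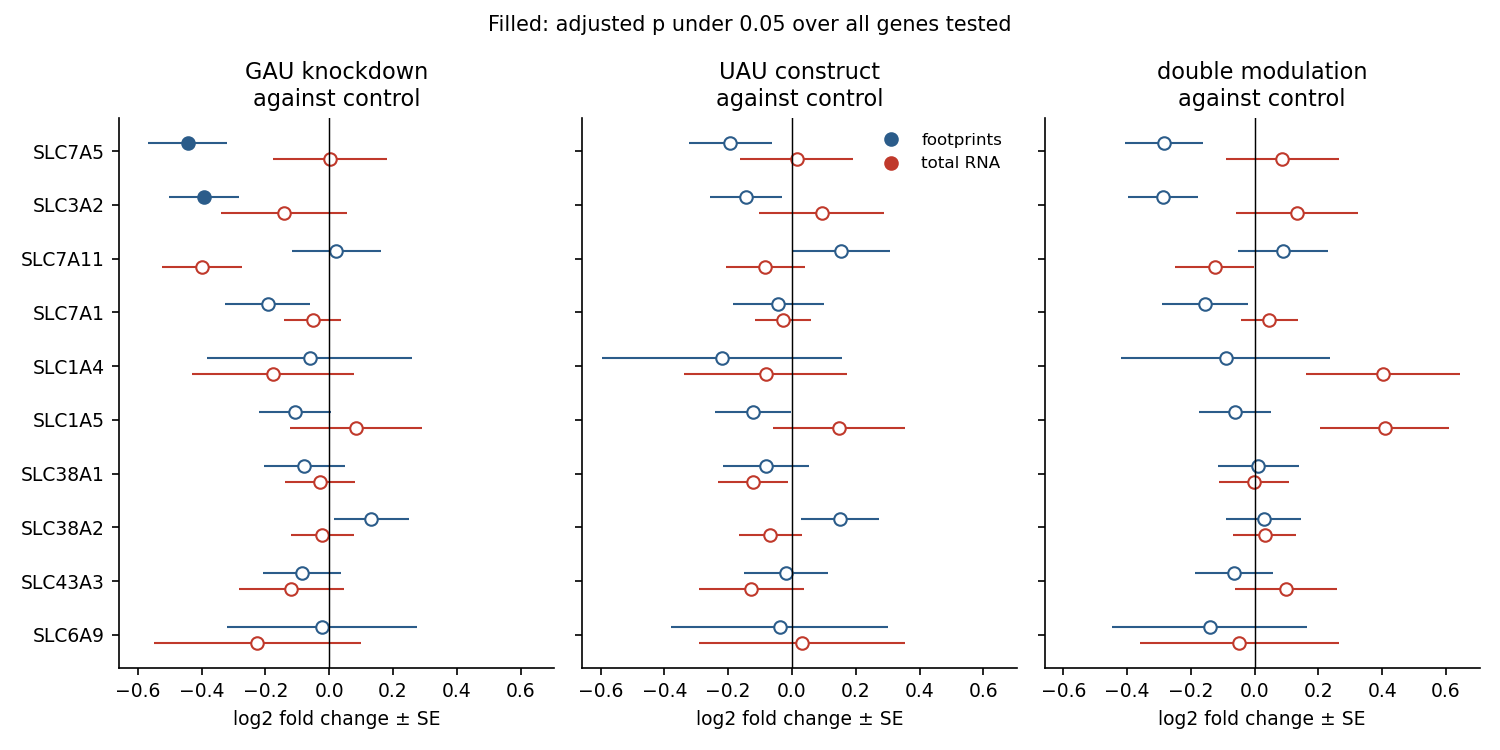
Log2 fold change with its standard error (edgeR) of the 10 transporter genes against control in the knockdown, the construct and the double modulation, footprints in blue and total RNA in red; filled points passed at an adjusted p under 0.05. Only the footprint values of SLC7A5 (-0.44) and SLC3A2 (-0.39) in the knockdown are filled.

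Over the 10 members, 8 had a footprint log2 fold change under 0 in the knockdown, with a median of -0.08, and of all genes tested 49.8% were under 0, with a median of 0.00. In the double modulation 7 of 10 were under 0 (median -0.08) and with the construct 8 of 10 (median -0.06), against 49.1 and 50.4% of all genes. In total RNA 8 of 10 were also under 0 in the knockdown, with a median of -0.09, where 48.9% of all genes were, with a median of 0.01. No member was called in footprints with the construct, the double modulation, the construct pooled over guides or the interaction by edgeR, where 0.0246, 1.93, 0.43 and 0.0614% of all genes were, and DESeq2 called none in any comparison. An unadjusted p under 0.05 was reached by 0, 2, 0 and 1 members in these 4 comparisons, and by 5.02, 11.9, 7.56 and 5.83% of all genes. In total RNA no member passed in any comparison by either tool, where edgeR called 0.0256% of all genes in the knockdown, 0.0683% in the double modulation, 1.08% with guides compared over pooled constructs and 0% in the other 3. SLC7A11 alone reached an unadjusted p under 0.05 there, in the knockdown, beside 6.94% of all genes, and with guides compared over pooled constructs (-0.22 ± 0.09), beside 10.5%. The pooled value did not pass with both double modulation libraries (adjusted p = 0.401 by edgeR), and was -0.14 without replicate 1 and -0.32 without replicate 2.

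Counted by libraries that do not overlap control, footprints of SLC7A5, SLC3A2 and SLC7A1 were lower in the knockdown, where 18.7% of all genes were. SLC7A5 and SLC3A2 were lower in the double modulation, where 19.4% were. SLC7A5, SLC3A2 and SLC1A5 were lower with the construct, where 16.6% were, and SLC7A11 and SLC38A2 higher, where 17.1% were. SLC7A5 and SLC3A2 are the only members on all 3 lists of lower genes, and these lists share their controls. The share of all genes on all 3 lists was not computed, so this count does not set the pair apart. In total RNA SLC3A2, SLC7A11, SLC7A1, SLC43A3 and SLC6A9 were lower in the knockdown without overlap, where 22.6% of all genes were, and SLC1A5 higher, where 20.4% were. With the construct SLC7A11, SLC7A1, SLC38A1 and SLC43A3 were lower, where 19.5% were, and SLC1A5 higher, where 17.2% were.

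The double modulation total RNA gave the members different answers by library. With both libraries the differences from control were 0.09 ± 0.18 for SLC7A5, 0.13 ± 0.19 for SLC3A2 and 0.41 ± 0.20 for SLC1A5, none of which passed (adjusted p = 0.942, 0.917 and 0.712 by edgeR). With replicate 1 alone they were 0.32, 0.41 and 0.71, and with replicate 2 alone -0.21, -0.25 and -0.02. SLC7A11 had -0.32 with replicate 1 alone and 0.04 with replicate 2 alone. The lone library was taken to vary like the other groups in these fits, so only their effect sizes are given and no call is read from them. Translational efficiency followed in the other direction. With replicate 1 of the total RNA alone it was -0.60 for SLC7A5, -0.69 for SLC3A2 and -0.77 for SLC1A5, and with replicate 2 alone it was -0.08, -0.04 and -0.04. Neither library could be set aside from the labels, so no direction is given for total RNA or translational efficiency of these genes in the double modulation.

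The members differed far more from each other than across conditions in how many footprints they had for their total RNA. The log2 ratio was mean log2 CPM in footprints minus that in total RNA, scaled as in the tests and with a prior count of 2. It therefore differs slightly from a ratio of the plain CPM given above. SLC3A2 had the highest ratio of footprint CPM to total RNA CPM, with a log2 ratio of 3.76 ± 0.16 (mean and SD over the 4 conditions), which is 13.6 to 1 and above 98.3% of 8012 genes. SLC1A5 followed at 3.05 ± 0.17 and SLC43A3 at 2.16 ± 0.10. SLC6A9 (1.57) and SLC1A4 (1.45) lay near the upper quartile of all genes, 1.40. SLC7A5 was at 0.51 ± 0.19, near the median gene at 0.21, together with SLC38A2 (0.06) and SLC7A1 (0.04).

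At the other end SLC38A1 had -1.16 ± 0.04 and SLC7A11 -1.43 ± 0.17, which puts SLC7A11 above only 12.5% of genes. The 2 chains that pair with SLC3A2 thus had ratios far under that of SLC3A2 itself. The ratio also depends on how much of a transcript is untranslated, since long untranslated parts add total RNA reads and no footprints, and transcript lengths were not used here. Between conditions it moved by less: it was 0.76 in control and 0.32 in the knockdown for SLC7A5, and 3.98 and 3.73 for SLC3A2. In the double modulation SLC3A2 had 3.60 with both total RNA libraries, 3.28 with replicate 1 alone and 3.93 with replicate 2 alone, so that value rests on which library is used.

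**Figure D4:**
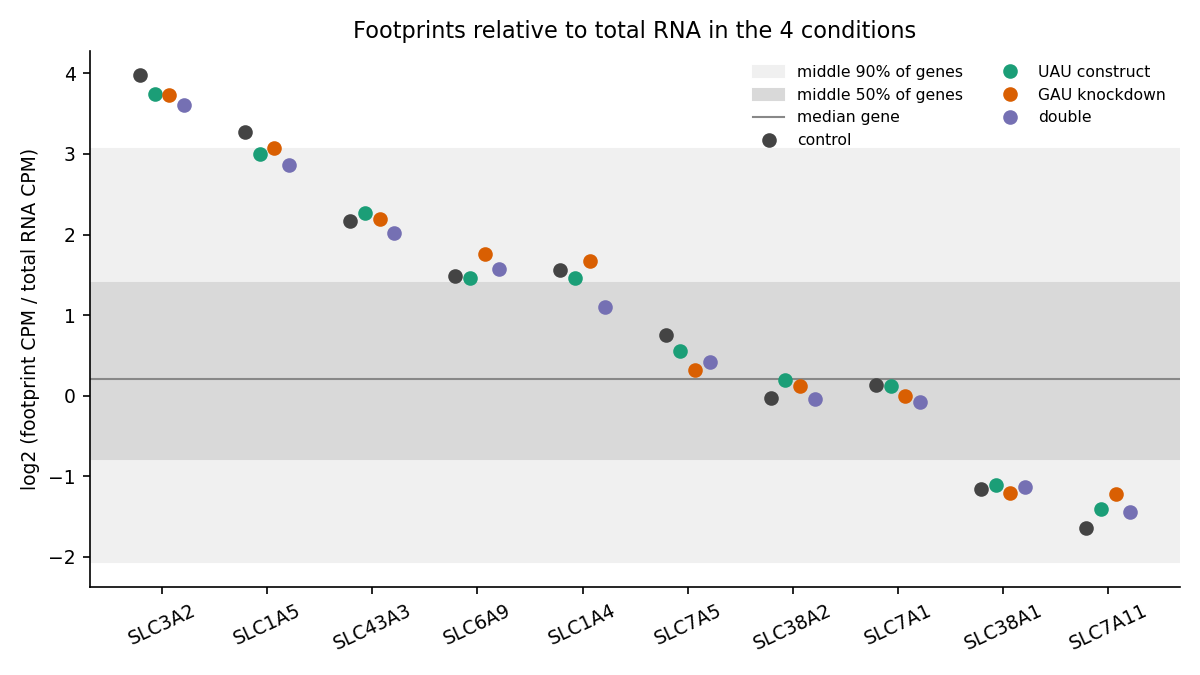
Log2 ratio for the 10 transporter genes, 1 point per condition: mean scaled log2 CPM in footprints minus that in total RNA. Bands hold the middle 50% and the middle 90% of 8012 genes. SLC3A2 lies above the wider band in all 4 conditions, SLC7A5 lies within the narrow band, and SLC7A11 and SLC38A1 lie below the narrow band.

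Across the 8 footprint libraries the gene most like SLC7A5 in log2 CPM, among 5707 well-covered genes, was EBP (Pearson r = 0.953), an enzyme of cholesterol synthesis. TOR3A followed (0.953), then SLC3A2 (0.949), CYC1 (0.929), a subunit of respiratory complex III, and TMED3 (0.925), a protein of vesicle traffic. SLC3A2 thus ranked 3 of 5707, while SLC7A1 ranked 68 (0.818) and SLC43A3 288 (0.675). SLC7A11 and SLC38A2 had r of -0.00 and -0.03, and the median gene -0.02. The libraries differ in depth with the guide, so these r are descriptions over 8 points. EBP had 233.6 and 216.2 CPM in control, 189.8 and 188.6 in construct, 164.9 and 145.0 in knockdown and 188.5 and 153.3 in double modulation libraries, and its choice by likeness to SLC7A5 leaves no test of it.

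Of 41 other amino acid transporters, 17 could be tested in footprints and 24 in total RNA, and 0 passed in any comparison by edgeR. At the shares of all genes called, given above, a count of 0 in a list this short does not set it apart, and the same holds for the counts of 0 in the next lists. Their median footprint log2 fold change in the knockdown was -0.05, against 0.00 over all genes. SLC7A6, another light chain of SLC3A2, was at 20.3 to 44.7 footprint CPM. SLC7A8, the close relative of SLC7A5 with a similar substrate range, was listed at 0 in every total RNA library.

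Of 23 genes of branched chain amino acid breakdown, the pathway that consumes leucine, isoleucine and valine, 21 were tested in footprints and 23 in total RNA. DLD, a subunit shared by the branched chain and pyruvate dehydrogenase complexes, was the only one to pass. Its total RNA was lower with the Ile GAU guide over pooled constructs (-0.51 ± 0.09, adjusted p = 0.0350 by edgeR, where 0.896% of genes were called lower), at 146.0 to 177.4 CPM against 217.2 to 233.3 with the eGFP guide. The DLD call was lost with the replicate block (adjusted p = 0.0526) and without any 1 library of control, construct or knockdown (adjusted p up to 0.228), at log2 fold changes of -0.61 to -0.43 over all 8 fits without 1 library. DLD lies on chromosome 7, whose 553 tested genes had a median of -0.37 in the same comparison, and none of the 10 carriers lies on that chromosome. The part of that chromosome-wide shift in the value of DLD was not tested.

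The response by which cells raise carrier genes when amino acids run short was read from 20 genes, ATF4 itself and known targets of it, of which 12 were tested in footprints and 18 in total RNA. In the knockdown 0 passed in either assay by edgeR, with medians of -0.11 and 0.02. In the double modulation 0 passed as well, with medians of 0.27 in footprints and 0.16 in total RNA, against 0.01 and 0.03 over all genes. Of the 12 tested in footprints, 5 were under 0 there. DDIT4, an inhibitor of the growth kinase mTORC1, was the only one to pass anywhere. Its footprints were lower with the tRNAIleUAU construct over pooled guides (-0.46 ± 0.10, adjusted p = 0.00780 by edgeR), where 0.295% of genes were called lower. The median of its list in that comparison was 0.12, with 5 of 12 genes under 0, so DDIT4 went the other way from that median. The DDIT4 call was lost with DESeq2 (adjusted p = 0.212) and without either control library, replicate 2 of the construct or replicate 1 of the knockdown (adjusted p up to 0.626). Footprints of DDIT4 were 208.8 and 225.2 CPM in the double modulation and 380.4 and 288.8 in the knockdown. They were 312.6 and 200.6 in construct and 294.4 and 300.3 in control libraries, which overlapped. Of 34 genes of amino acid sensing at the lysosome, which pass amino acid levels on to mTORC1, 26 were tested in footprints and 32 in total RNA. None of them passed in any comparison by edgeR, with a median of 0.08 in knockdown footprints. Some genes of the ATF4 and sensing lists lie on chromosome 7, whose tested genes had a median of -0.39 in both assays in the knockdown. The part of that shift in the medians of these lists was not tested.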

How the data were processed

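Footprints and total RNA were each measured in 8 libraries, 2 for each of 4 conditions. The authors deposited, for each library, a table of unnormalized counts of reads by gene symbol. Tools named in the submitters' processing notes are HTSeq, STAR 2.5.2a and cutadapt 1.17, with genome hg38. The annotation, the strand setting and the HTSeq version are not given in the sources used here, so reads of overlapping or antisense genes cannot be told apart. The 5 HTSeq summary lines per table entered no test, and a symbol missing from a footprint file was given 0. Reads placed at several positions are not in the counts. They were 97.0 to 98.8% of the alignments in footprints and 97.2 to 98.1% in total RNA. Of the other alignments, 24.8 to 32.6% in footprints and 62.2 to 65.0% in total RNA lay on no counted gene. The labels give both polyA RNA and total RNA for the same libraries, so the RNA fraction sequenced is not settled. CPM are counts divided by a library's total on genes and scaled to a common total, with SD over libraries.

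Tests used edgeR 4.0.16 (quasi-likelihood, filterByExpr with minimum count 10 and minimum total 15, TMM scaling) in R 4.3.3, fitting 1 mean per condition to the 8 libraries of an assay, which leaves 4 residual degrees of freedom. Translational efficiency was the footprint contrast minus the total RNA contrast in 1 fit of 16 libraries (8 residual degrees of freedom). The biological coefficient of variation was 6.71% in footprints, 14.3% in total RNA and 12.5% over both. Benjamini-Hochberg adjustment ran over all 8143, 11720 and 8012 genes tested, and a gene passed under 0.05. A ± after a log2 fold change is a standard error. Genes were named by these rules: all 10 carriers, up to 4 passing genes of each of 4 lists, and the 5 genes most like SLC7A5. Likeness was Pearson r over footprint libraries, among genes with a mean log2 CPM of at least 5. SLC7A6 and SLC7A8, from the list of other transporters, were named outside these rules. The carriers and lists were chosen with earlier results of these data known. Symbols were matched to RefSeq tables of GRCh38.p14, 23758 as current names and 1562 as synonyms. The fits were tested on simulated data. Alternatives were DESeq2 1.42.0, RLE scaling, no filter, a mean CPM of at least 20, thinning, a replicate block, only the groups compared, no chromosome 7 genes, and each library left out. A fit without the double modulation total RNA was added after seeing the data.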

Additional observations from a re-analysis of the deposited data

How the results depend on the processing

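The fall of SLC7A5 and SLC3A2 footprints in the knockdown kept its direction under every alternative run. Its 2 calls became 0 with DESeq2 (adjusted p = 0.0876 and 0.0544), with no filter on low counts (0.0838 and 0.0778), with footprint libraries thinned (0.159 and 0.312) and without chromosome 7 genes (0.0527 and 0.0576), and ranged from 0 to 2 when 1 library was left out. Both held without either double modulation library, with RLE scaling, with the higher CPM minimum and with only the groups compared. The 1 call with constructs pooled, SLC3A2, became 0 with DESeq2, with no filter and with thinning (0.153, 0.0679 and 0.235), and ranged from 0 to 1 without 1 library. It held only without replicate 1 of the double modulation among those 8 fits. In total RNA the 0 calls in the knockdown became 1, SLC7A11, with only the groups compared and without the double modulation total RNA. Without 1 library the count ranged from 0 to 1 there, from 0 to 3 in the double modulation, from 0 to 2 with constructs pooled, and from 0 to 1 for the construct pooled over guides and for the interaction. In translational efficiency it ranged from 0 to 3 in the double modulation and from 0 to 1 with constructs pooled. SLC7A5 total RNA in the knockdown, near 0 in the main analysis, was -0.00471 with no filter, -0.00554 with only the groups compared, -0.00774 with the replicate block, -0.0102 without chromosome 7 genes and -0.00417 without the double modulation total RNA. Leaving out 1 library turned the sign of other log2 fold changes of the pair that had not passed. For the construct pooled over guides, SLC7A5 ran from -0.065 to 0.035 and SLC3A2 from -0.061 to 0.013 in footprints, from -0.091 to 0.17 and from -0.0036 to 0.32 in total RNA, and SLC7A5 from -0.18 to 0.076 in translational efficiency. In total RNA, SLC7A5 and SLC3A2 ran from -0.21 to 0.32 and from -0.25 to 0.41 in the double modulation, from -0.22 to 0.31 and from -0.20 to 0.46 for the interaction, and from -0.11 to 0.15 and from -0.24 to 0.085 with constructs pooled. SLC7A5 total RNA ran from -0.20 to 0.18 in the knockdown and from -0.094 to 0.11 with the construct, and the SLC3A2 interaction in translational efficiency from -0.21 to 0.45. The cause of these changes was not tested, other than that fewer libraries, reads or genes entered the respective fits.

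Deviations of same-numbered libraries correlated at -0.04 to 0.06 in footprints and -0.42 to 0.36 in total RNA. Footprint libraries of a condition differed little beyond counting error, with a chi-square per degree of freedom of 1.13 to 1.68. These correlations therefore cannot show whether the replicate numbers pair the footprint libraries. Over all genes, the replicate block raised footprint calls from 90 to 109 in the knockdown and from 157 to 209 in the double modulation. In total RNA it raised calls in no comparison. With the replicate block SLC7A5 and SLC3A2 footprints had -0.44 and -0.39 in the knockdown (adjusted p = 0.0208 for both), and the block changed no call of a member. Over all genes, footprint calls in the knockdown, 90 in the main analysis, were 25 with DESeq2, 28 with thinning, 42 without chromosome 7 genes and 18 to 112 without 1 library. Double modulation footprint calls, 157, were 48, 75, 98 and 35 to 173 under the same alternatives. Total RNA calls in the knockdown, 3, were 41 with DESeq2, 99 with no filter, 236 with only the groups compared, 228 without the double modulation total RNA and 0 to 241 without 1 library. Total RNA calls with constructs pooled, 126, were 197 with the higher CPM minimum, 486 with no filter, 53 with the replicate block, 14 without chromosome 7 genes and 6 to 1820 without 1 library. Depth limits SLC6A9 and SLC1A4 most, whose footprint counts stayed under 40 in every library.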
